A study of Mus musculus with 6 samples.

Results

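Transcripts of the failing heart were set against those of whole blood from mice of the same treatment, on 2 of the 6 arrays of the series. Male C57BL/6J mice received isoproterenol, which stimulates β-adrenergic receptors, by subcutaneous injection (40 mg/kg/day over 1 week) and are called HF. Control mice were injected with saline. According to the array methods, each array carried RNA mixed from 5 mice, whereas the extraction methods describe blood of a larger number of animals, which was collected by removal of the eyeballs. Control heart and control whole blood formed the saline pair, and HF plasma is used where named. The arrays of HF heart and HF whole blood were neighbours on a slide that also carried control heart and HF plasma. The other blood arrays, of control mice, were on a second slide with a scan of its own, so treatment and slide cannot be told apart in whole blood. No array was repeated, and no difference is given a test, a p value or an SD.

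The transcripts are 4093 mRNA probes of 3470 genes, which is the part of the authors' mRNA list held here, and 7536 named LncRNA probes. Among the latter, 6574 belong to long intergenic noncoding RNAs and 962 to ultraconserved regions. A level is the log2 of the processed signal after quantile normalization over the 6 arrays. A difference is the level in HF heart minus the level in HF whole blood. The value after ± is an error within arrays, computed from the signal errors that the image software states, and contains no spread between animals. A probe was taken as detected when its spots were flagged well above background and not as outliers. Of the probes on the mRNA list, 98.2% were detected in control heart, so it says little about transcripts that blood holds and control heart lacks. In HF heart 75.5% of the list was detected and in HF whole blood 73.6%. Over all 59729 probes these shares were 35.1% and 29.8%, and control heart held 47.3%.

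Heart muscle cells are filled with contractile filaments and mitochondria, contract through cycles of calcium release and uptake, and in the failing heart make more of the natriuretic peptide hormones. Whole blood RNA comes mainly from maturing red cells, granulocytes, lymphocytes and platelets. A piece of heart also contains fibroblasts, endothelial cells, resident macrophages and the blood in its vessels. In bulk RNA, fewer cells of a type and less RNA per cell cannot be told apart.

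HF whole blood stood apart from control whole blood, which bears on every result below. Of 44 probes for structural genes of heart muscle, HF heart held 40 above background, HF whole blood 39, control heart 43 and control whole blood 15. Of all mRNA probes, 75.5%, 73.6%, 98.2% and 64.2% were detected on these arrays in the same order. The 99th percentile of the signal before normalization was 4.76 times as high in HF heart as in HF whole blood. Outlier flags were carried by 15 to 53 probes on the arrays of HF heart and HF whole blood and by 536 in control whole blood. Many, though not all, dim probes of control whole blood moreover share a lowest level of 2.73 and have no order among them. Probes of one gene often disagreed: among 214 genes with several mRNA probes detected in HF heart and HF whole blood, the SD of the difference between probes had a median of 0.95. No probe sequence was held, so the match of a probe to its gene was not checked.

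The promoters of 4 genes on which the comparison turns are printed for their sequence context, from RefSeq on GRCm38.p6, with 250 bases before and 50 bases after the annotated start. Actc1 encodes cardiac α-actin (chr2:114052826-114053125, minus strand), and Nppb encodes brain natriuretic peptide (chr4:147985650-147985949, plus strand). Both were higher in HF heart. Alas2 encodes the first enzyme of haem synthesis in red cells (chrX:150547167-150547466, plus strand), and Camp encodes a neutrophil granule peptide (chr9:109849407-109849706, minus strand). Both were higher in HF whole blood. Capitals mark matches on either strand to 6 motifs.
Actc1 promoter: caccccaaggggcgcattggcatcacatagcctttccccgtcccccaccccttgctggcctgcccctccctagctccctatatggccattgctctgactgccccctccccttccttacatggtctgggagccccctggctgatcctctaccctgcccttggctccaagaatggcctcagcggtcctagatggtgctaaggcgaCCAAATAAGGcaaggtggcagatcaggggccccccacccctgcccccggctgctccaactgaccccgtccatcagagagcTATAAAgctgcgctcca
Nppb promoter: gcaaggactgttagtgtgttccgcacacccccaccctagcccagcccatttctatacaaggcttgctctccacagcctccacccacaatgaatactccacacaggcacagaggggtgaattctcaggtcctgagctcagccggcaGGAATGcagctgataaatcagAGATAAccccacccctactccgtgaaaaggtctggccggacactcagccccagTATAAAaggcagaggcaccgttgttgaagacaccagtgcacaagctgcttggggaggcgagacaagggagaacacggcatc
Alas2 promoter: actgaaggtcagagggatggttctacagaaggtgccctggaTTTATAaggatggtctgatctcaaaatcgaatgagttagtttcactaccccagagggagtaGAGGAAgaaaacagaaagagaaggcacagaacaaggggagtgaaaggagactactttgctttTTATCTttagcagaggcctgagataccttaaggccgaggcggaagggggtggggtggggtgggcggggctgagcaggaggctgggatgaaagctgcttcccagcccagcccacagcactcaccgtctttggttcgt
Camp promoter: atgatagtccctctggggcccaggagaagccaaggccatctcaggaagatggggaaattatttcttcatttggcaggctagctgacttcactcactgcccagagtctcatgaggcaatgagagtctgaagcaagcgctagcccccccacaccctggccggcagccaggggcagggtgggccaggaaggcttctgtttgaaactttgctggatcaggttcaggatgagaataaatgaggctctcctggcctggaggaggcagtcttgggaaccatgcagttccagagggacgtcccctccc

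The motifs are the CArG box of serum response factor and the MEF2 site, given by name, and the following strings. A GATA factor site was searched as AGATAA. An M-CAT site, bound by TEAD factors, was searched as CATTCC. The promoter box near the start was searched as TATAAA. For ETS factor sites the core GAGGAA was searched. Actc1 held a CArG box from base -47 and the promoter box from base 34, counted from the annotated start. Nppb held the M-CAT string from base -105 on the minus strand, the string for GATA factors from base -84 and the promoter box from base -31. Alas2 held the string for GATA factors from base -86 on the minus strand, the ETS string from base -148 and the promoter box from base -209 on the minus strand. The windows of Camp and of Tnni3 held none of the 6, and the matches printed do not overlap each other.

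Over 32851 RefSeq promoters of this length, a CArG box was found in 1.63%, a MEF2 site in 3.19%, the string for GATA factors in 11.2%, the M-CAT string in 14.7%, the promoter box in 13.6% and the ETS string in 28.3%. The same strings were counted in 1207 promoters of mRNAs that were at least 2-fold higher, or detected only, in HF heart, and in 1582 of mRNAs on the side of HF whole blood. A CArG box was in 1.74% of the heart set and 1.52% of the blood set. The other 5 were less frequent in the heart set. For the MEF2 site the shares were 1.74% in the heart set and 2.4% in the blood set, and for the string of GATA factors 5.8% and 10.3%. The M-CAT string was in 11.1% and 14.2%, the promoter box in 10.4% and 11%, and the ETS string in 26.8% and 32.0%. A match is a string of letters and not a bound site.

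HF heart and HF whole blood differed in both directions over the mRNA list. Among 2508 mRNA probes detected on both arrays, 865 (34.5%) had a level at least 2-fold higher in HF heart, 1087 (43.3%) at least 2-fold lower, and 556 lay within 2-fold. A further 583 of the 4093 (14.2%) were detected only in HF heart and 502 (12.3%) only in HF whole blood, while 497 were detected on neither array. The median difference was -0.54, with quartiles of -2.23 and 2.06. The side of the heart was the shorter one: the 99th percentile of the difference was 4.21 and the 1st percentile was -6.61.

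In the saline pair, both arrays held 2605 probes, with 464 (17.8%) at least 2-fold higher in control heart and 1461 (56.1%) at least 2-fold lower. Control heart alone held 1360 (33.2%) and control whole blood alone 19 (0.464%). The 99th percentile of the difference was 5.47. More of the list was thus seen only in heart in saline mice than in treated mice. However, control heart held 98.2% of the list and HF heart 75.5%, which limits what control whole blood alone could hold. Over all 59729 probes, heart alone held 24.3% in the saline pair and 13.1% in the treated pair. Whole blood alone held 2.87% and 7.81% of these.

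**Figure D1:**
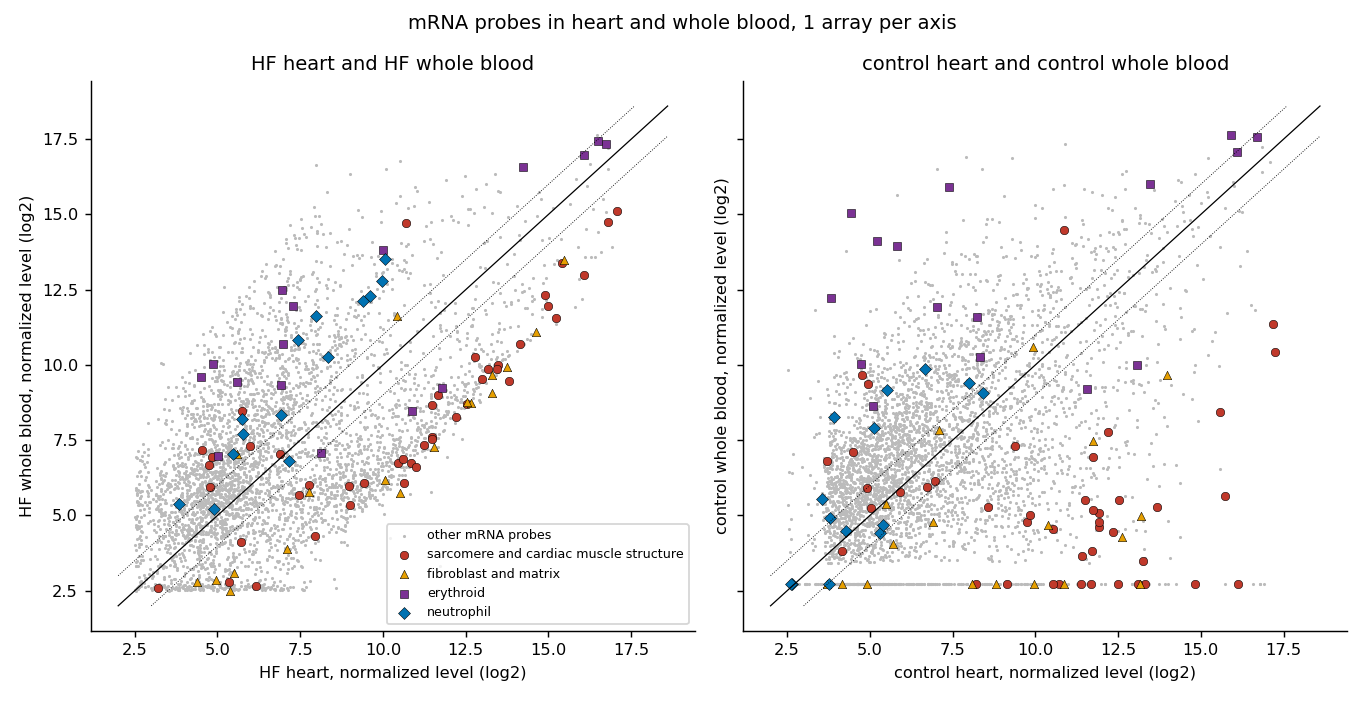
Normalized log2 levels of 4093 mRNA probes in heart (horizontal) and whole blood (vertical), treated mice on the left and saline mice on the right. Red circles are sarcomere, orange triangles fibroblast and matrix, purple squares erythroid and blue diamonds neutrophil probes, the solid line marks equal levels and the dotted lines 2-fold. On the left most heart probes form a band below the line, such as Actc1 at 16.07 and 12.99, whereas on the right many lie at the lowest level of control whole blood, 2.73.

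Heart markers were higher in HF heart and the neutrophil marker in HF whole blood, as the labels have it, but Actc1, Tnni3 and Tnnt2 were detected in HF whole blood too. Actc1 had a level of 16.07 in HF heart, 12.99 in HF whole blood, 15.73 in control heart and 5.64, not above background, in control whole blood. Its difference in treated mice was 3.08 ± 0.20, or 8.46-fold. Tnni3, the inhibitory subunit of cardiac troponin, had levels of 14.90, 12.31, 14.84 and 2.73 in the same order, the last not above background. Its difference was 2.58 ± 0.20. Both genes were thus bright on 3 of these arrays and dim on that of control whole blood.

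Tnnt2, the troponin subunit that binds tropomyosin, had 9 probes, all of them higher in HF heart, by 2.52 to 4.33 with a median of 3.66. In control whole blood 8 of the 9 were not above background. Camp had levels of 9.60 in HF heart, 12.29 in HF whole blood, 5.14 in control heart and 7.90 in control whole blood. Its difference was -2.68 in treated and -2.76 in saline mice. The value in treated mice depended on the normalization and was -1.37 after scaling to the 75th percentile.

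Bounds give the size of the gap between the blood arrays. Actc1 was at least 149-fold and Tnni3 at least 92.7-fold brighter in HF than in control whole blood. A bound of this kind takes as the dim side either the level of the probe itself or, where that is higher, the lowest level of any probe detected on that array. In HF plasma Actc1 (4.03) and Tnni3 (3.93) were not above background. Of 29 probes for structural genes of heart muscle not above background in control whole blood, 7 were detected in HF plasma. Over all mRNA probes not above background there, 730 of 1412 were.

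**Figure D2:**
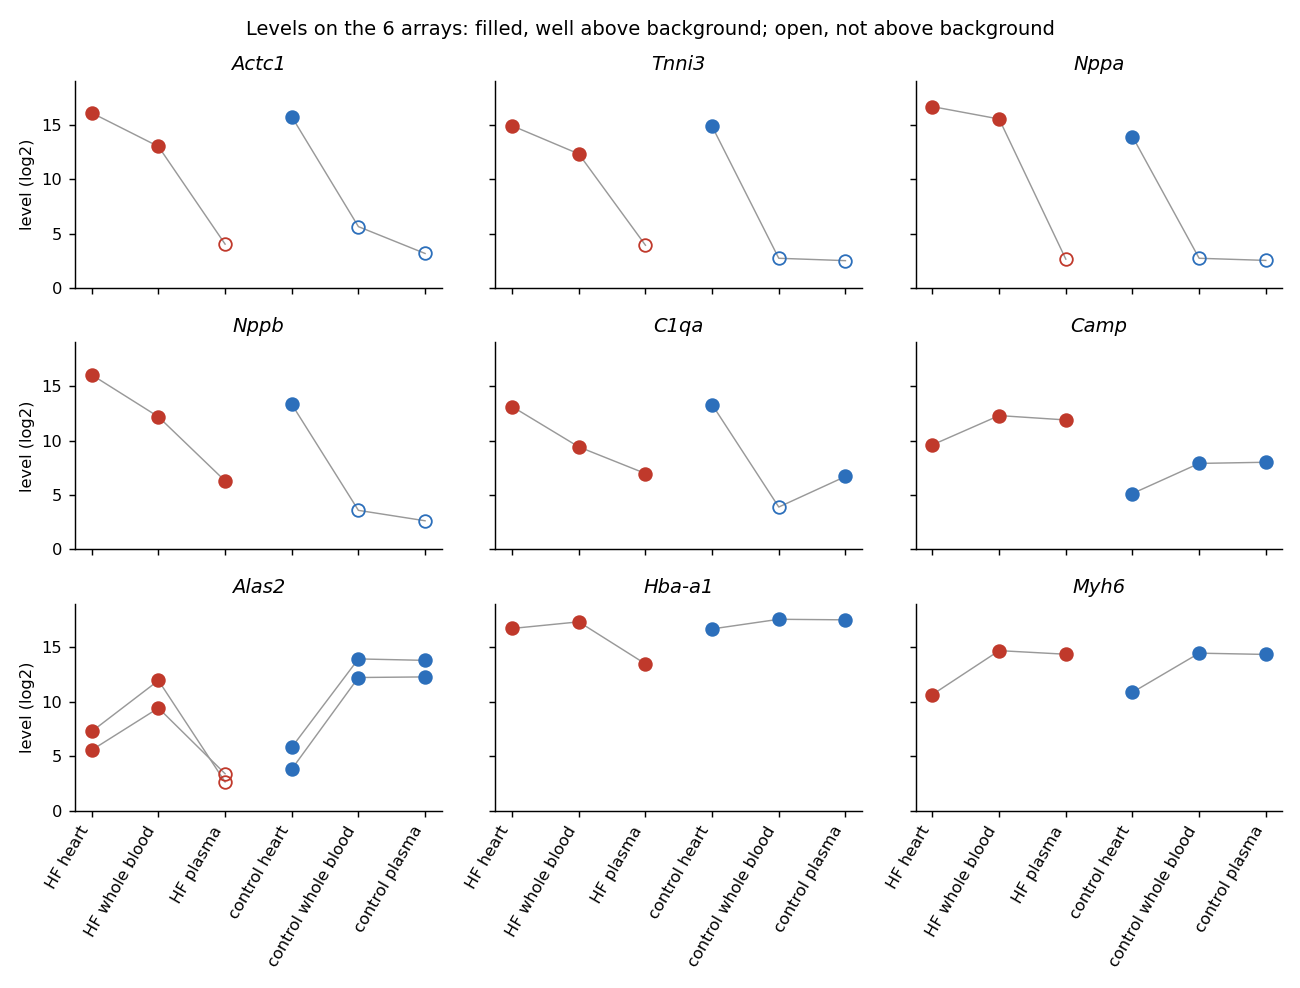
Log2 levels of 9 genes on the 6 arrays, HF in red and control in blue, 1 line per probe, with filled points well above background and open points not. Actc1, Tnni3, Nppa, Nppb and C1qa are filled in HF whole blood and open in control whole blood, while Camp, Alas2, Hba-a1 and Myh6 are filled in both.

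Structural genes of heart muscle were mostly higher in HF heart. Of their 44 probes, 36 were detected on both arrays, with 31 at least 2-fold higher in HF heart, 4 lower and 1 within 2-fold, and a further 4 were detected only in HF heart. Of all 2508 mRNA probes detected on both arrays, 34.5% were higher and 43.3% lower, and 14.2% of all mRNA probes were detected only in HF heart. The median difference was 3.0, against -0.43 over all mRNA probes, where a probe detected on 1 array enters at its bound. In the saline pair the median was 5.59, against 0.00. Of the 29 probes not above background in control whole blood, 27 were detected in HF whole blood, beside 52.8% of all mRNA probes not above background there. The levels of the other cell type lists on these arrays are given below, and their part in this difference was not tested. List medians below likewise include probes detected on 1 array, at their bounds. For some lists a median over the probes detected on both arrays is added.

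Tnnc1, the troponin subunit that binds calcium, measured 14.99 in HF heart and 11.96 in HF whole blood. Des, the intermediate filament protein of muscle, measured 11.23 and 7.35. Trim63, a ubiquitin ligase of the sarcomere, measured 10.63 and 6.09. All 3 were detected in control heart, at 10.71 to 16.11, and at the lowest level of control whole blood.

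Some members went against the list. The probe of Myh6, the α-myosin heavy chain, read 10.68 in HF heart, 14.71 in HF whole blood, 10.88 in control heart and 14.47 in control whole blood, so it was lower in heart in both pairs. Tpm1, a tropomyosin, had 7 probes that fell into groups. Its 3 brightest, at 15.41 to 17.07 in HF heart, were 1.94 to 2.07 higher there than in HF whole blood. A dim Tpm1 probe (5.98 and 7.32) was lower in HF heart.

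Natriuretic peptides were bright on both arrays. Nppa, atrial natriuretic peptide, had levels of 16.65 in HF heart, 15.52 in HF whole blood, 13.91 in control heart and 2.73, not above background, in control whole blood. Its difference in treated mice was 1.14 ± 0.20, small beside those of the troponins. Nppb had levels of 16.03, 12.18, 13.33 and 3.59 in the same order, again with the last not above background, and a difference of 3.85 ± 0.20. Nppa in HF whole blood was therefore brighter than in control heart, whereas Nppb was not, and Nppa was at least 854-fold brighter than control whole blood allowed.

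The receptors and the processing enzyme of these hormones were read as well. Npr1, the receptor of both peptides, measured 11.82 in HF heart and 7.80 in HF whole blood. Both probes of Npr3, the clearance receptor, were detected in HF heart (8.57 and 8.58) and not in HF whole blood. Corin, the protease that activates the precursor of Nppa, was lower in HF heart (8.0 and 12.16). Over the list 3 of 4 probes detected on both arrays were higher in HF heart and 1 was lower, beside 34.5% and 43.3% of all mRNA probes. The median was 2.49 over these 4 natriuretic probes. It was 3.33 over all 6, with those detected on 1 array at their bounds.

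Genes of mitochondrial energy production were mostly higher in HF heart. In the list of oxidative phosphorylation and the citric acid cycle, both arrays showed 27 of 28 probes, with 23 at least 2-fold higher in HF heart, beside 34.5% of all mRNA probes, 1 lower and a median of 2.82. Cytochrome oxidase contains subunits that exist in a muscle form and a widely expressed form, and the muscle form had the larger difference in each of 3 such pairs. The muscle form Cox8b measured 16.60 in HF heart and 13.74 in HF whole blood, and the widely expressed Cox8a 15.13 and 15.21. The muscle form Cox6a2 measured 16.51 and 14.42, and the widely expressed Cox6a1 14.28 and 14.79. Both widely expressed forms thus lay within 2-fold. In contrast Cox7a2, widely expressed as well, was higher in HF heart (13.73 and 11.94), as was the muscle form Cox7a1 (13.30 and 9.66). In control whole blood Cox8b and Cox6a2 were not above background, while Cox8a (15.58) and Cox6a1 (15.28) were bright. Ndufs1, a subunit of complex I, was the member that was lower in HF heart (7.40 and 12.61).

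Fatty acid genes followed with 11 higher and 5 lower of 17 probes detected on both arrays, beside 34.5% and 43.3% of all mRNA probes, and a median of 1.94. Fabp3, the fatty acid carrier of heart muscle, measured 15.89 in HF heart, 13.91 in HF whole blood and 16.79 in control heart, and was not above background in control whole blood. Lpl, which frees fatty acids from circulating triglyceride, measured 14.51 and 12.29 in the treated pair. Plin5, a protein of lipid droplets, was lower in HF heart (5.81 and 10.89). The fatty acid transporter Cd36 depended on the probe, with differences of 2.86 and 3.21 at one pair of probes and -2.63 and -0.88 at another.

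Calcium handling and excitation genes were mixed, with 5 higher, 4 lower and 7 within 2-fold among 16 probes detected on both arrays. The share higher lay near the 34.5% of all mRNA probes, and 43.3% of all mRNA probes were lower. The list median was 0.85 over 19 probes detected on 1 or both arrays, and 0.30 over the 16 alone. The brightest was Atp2a2, the calcium pump of the sarcoplasmic reticulum, with 16.91 in HF heart, 13.92 in HF whole blood, 16.57 in control heart and 2.73, not above background, in control whole blood. Gja5, a gap junction protein of atria and conduction tissue, measured 9.80 and 5.50 in the treated pair. Kcnq1, a potassium channel, was lower in HF heart (6.91 and 12.23).

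Cardiac transcription factors likewise were split, with 4 higher and 2 lower of 7 (34.5% and 43.3% over all mRNA probes). Their median was 0.85 over 8 probes detected on 1 or both arrays, and 1.21 over the 7 alone. Nkx2-5 measured 13.76 in HF heart and 10.47 in HF whole blood and was not above background in control whole blood. Gata4 (12.13 and 9.34) and Gata6 (12.93 and 9.94) were detected in control whole blood too, at 8.22 and 8.50. Mef2a, which blood cells also express, was lower in HF heart (9.42 and 11.64).

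Genes of other cells of the heart wall were also mostly higher in HF heart. Of 18 fibroblast and matrix probes, 13 were detected on both arrays, with 11 higher (34.5% over all mRNA probes) and 2 lower (43.3%) in HF heart. A further 4 were detected only in HF heart (14.2% over all mRNA probes), and the list median was 3.53. Col3a1, a fibrillar collagen, had levels of 13.28 in HF heart, 9.07 in HF whole blood, 10.86 in control heart and 2.73, not above background, in control whole blood. Eln, elastin, measured 12.53 and 8.78 in the treated pair and 8.09 in control heart. Both were thus brighter in HF than in control heart and present in HF whole blood at a distance of 3.75 to 4.21. Postn, a matrix protein of activated fibroblasts, was detected only in HF heart (7.09) of the 4 heart and whole blood arrays. Dcn, a collagen-binding proteoglycan, was lower in HF heart (10.41 and 11.63) and was detected in control whole blood (10.60).

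Endothelial genes had 11 higher and 4 lower of 18 probes detected on both arrays, beside 34.5% and 43.3% of all mRNA probes, with a median of 2.07. Cav1, the coat protein of caveolae, measured 14.43 in HF heart and 10.82 in HF whole blood. Thbd, thrombomodulin, measured 12.18 and 8.23. A pair of probes for Eng, a TGF-β co-receptor, disagreed, with differences of 2.40 and -3.52.

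The macrophage list was split as well. C1qa, C1qb and C1qc, subunits of a complement protein made by tissue macrophages, were 3.64 to 3.70 higher in HF heart and not above background in control whole blood. For C1qa the levels were 13.11 in HF heart, 9.41 in HF whole blood and 13.30 in control heart. Cd68, a lysosomal protein of macrophages, was lower in HF heart (8.15 and 10.28). Of 10 probes detected on both arrays, 4 were higher, 2 lower and 4 within 2-fold, where 34.5% of all mRNA probes were higher and 43.3% lower.

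**Figure D3:**
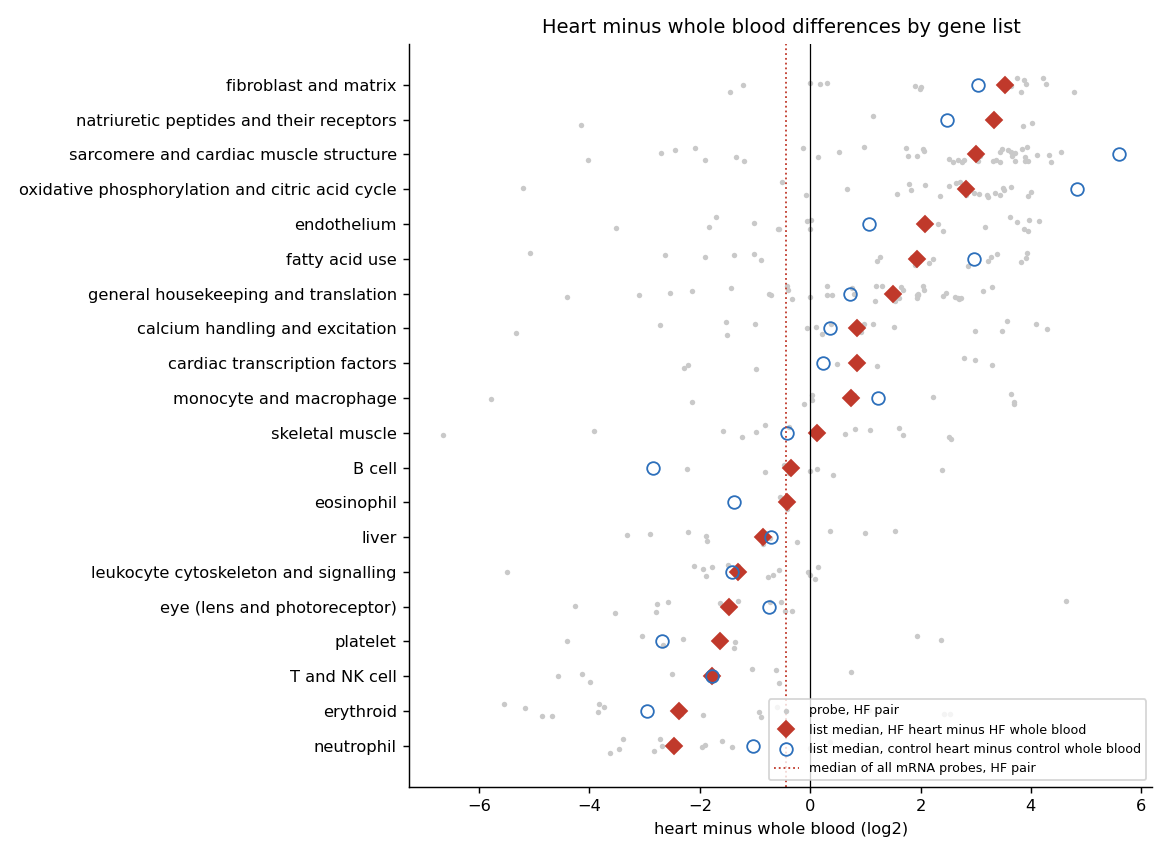
Heart minus whole blood differences, in log2 units, for 20 gene lists, with grey points for probes of the HF pair, red diamonds for their medians, blue circles for the medians of the control pair and a dotted line at the median of all mRNA probes in the HF pair (-0.43). Sarcomere genes have medians of 3.0 in the HF pair and 5.59 in the control pair, while B cell genes have -0.34 and -2.86.

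Red cell transcripts were mixed: globins were bright in heart as well, whereas Alas2 and Car2 were far lower there. Hba-a1, an α-globin, measured 16.74 in HF heart and 17.35 in HF whole blood. The β-globin Hbb-b1 measured 16.50 and 17.43, and Hba-a2 14.22 and 16.57. The brighter Alas2 probe had levels of 7.29 in HF heart, 11.97 in HF whole blood, 5.84 in control heart and 13.95 in control whole blood. Car2, a carbonic anhydrase, had levels of 6.98, 10.71, 5.21 and 14.12 in the same order. Both enzymes were higher in HF than in control heart and lower in HF than in control whole blood, and their differences were -4.68 and -3.73 in treated mice against -8.11 and -8.91 in saline mice.

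Over the erythroid list, 9 of 15 probes detected on both arrays were lower in HF heart (43.3% over all mRNA probes) and 3 were higher (34.5%), with a median of -2.38, against -2.95 in the saline pair. Gata1, the transcription factor of red cell precursors, was detected in HF whole blood (9.58) and not in HF heart, where it was at least 29.2-fold lower. The members that were higher in HF heart were Gypc and the haem synthesis enzymes Urod and Alad, which other tissues also use.

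Neutrophil transcripts were mostly higher in HF whole blood. Of 12 neutrophil probes detected on both arrays, 11 were at least 2-fold lower in HF heart and 1, Clec4d, lay within 2-fold, with a median of -2.46. Over all mRNA probes 43.3% were lower. Ptafr, the receptor of platelet-activating factor, was detected only in HF heart, at 4.88. S100a9, a subunit of calprotectin, had levels of 10.06 in HF heart, 13.53 in HF whole blood, 7.99 in control heart and 9.39 in control whole blood. Ltf, lactoferrin, had levels of 9.97, 12.79, 4.28 and 4.50 in the same order, the last not above background. Both were thus brighter after isoproterenol in heart and in blood. Lcn2, a granule protein that binds siderophores, measured 9.39 and 12.12 in the treated pair and was also not above background in control whole blood. Ltf was at least 129-fold and Lcn2 at least 81.1-fold brighter in HF than in control whole blood.

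B cell transcripts were dim in treated mice. Cd79b, part of the B cell receptor, had levels of 6.33 in HF heart, 6.21 in HF whole blood, 4.73 in control heart and 10.34 in control whole blood. Of the 4 arrays, it stood out in control whole blood. Of 7 B cell probes detected on both arrays, 6 lay within 2-fold and 1 was lower in HF heart (43.3% over all mRNA probes), with a median of -0.34, against -2.86 in the saline pair. T and NK cell genes had 3 of 5 probes detected on both arrays lower, beside 43.3% of all mRNA probes, and none higher. Their median was -1.77 over 8 probes detected on 1 or both arrays, and -1.05 over the 5 alone. Klrk1, an NK cell receptor, measured 8.51 in HF heart and 11.01 in HF whole blood.

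All 6 platelet probes detected on both arrays were lower in HF heart, beside 43.3% of all mRNA probes, with a median of -1.64 over the list. Gp5, a platelet glycoprotein, measured 7.09 in HF heart and 11.49 in HF whole blood. In contrast F2rl3 and P2ry1, which encode platelet receptors, were detected only in HF heart. Leukocyte genes of cytoskeleton and signalling had 5 of 10 probes detected on both arrays lower, which is near the 43.3% of all mRNA probes, and none higher. Their median was -1.31 over 15 probes detected on 1 or both arrays, and -0.99 over the 10 alone. The 3 eosinophil probes had a median of -0.42. Over the 2 detected on both arrays the median was also -0.42, and it was 0.23 after scaling to the 75th percentile.

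Lists of other organs were read because blood had been taken at the eye. Eye genes had 7 lower and 1 higher of 11 probes detected on both arrays, beside 43.3% and 34.5% of all mRNA probes, and a median of -1.47. Crygc, a lens crystallin, measured 5.92 in HF heart and 10.17 in HF whole blood. Its level in control whole blood was 10.26, close to that in HF whole blood. Skeletal muscle genes had a median of 0.13, or 0.82 over the 9 probes detected on both arrays, and Myl1, a light chain of fast muscle, measured 9.22 and 9.60. Liver genes had a median of -0.85, since 6 of 13 probes were detected only in HF whole blood, beside 12.3% of all mRNA probes. Over the 4 liver probes detected on both arrays the median was 0.06. Housekeeping and ribosomal genes had 19 higher and 5 lower of 33 probes, beside 34.5% and 43.3% of all mRNA probes, and a median of 1.49. The part of such tissues in the levels of HF whole blood was not tested.

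Among mRNA probes detected on both arrays, the largest differences mostly belonged to genes outside the marker lists. Towards heart, Galns, a lysosomal sulphatase, came first of these probes with 11.44 in HF heart and 5.78 in HF whole blood, a difference of 5.66 ± 0.29. It was not above background in control heart. Pus1, which modifies uridine in RNA, measured 10.81 and 5.70 and was not above background in control heart either. Serbp1, an mRNA-binding protein, measured 11.95 and 6.94, and its other probes gave smaller differences of 3.15 and 2.61. The remaining 7 of the first 10 were Alpk2, Col4a1, Opn4, Trim63, Ktn1, Cxadr and Plagl1, with differences of 4.39 to 4.84. All 7 were detected in control heart.

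Towards blood, Ipp, a kelch-repeat protein, differed most among probes detected on both arrays, with 7.97 in HF heart and 16.65 in HF whole blood (-8.68 ± 0.21). Akap1, Eya4, Pla2g5, Rtp2, Tasp1, Pus1, Gm11938, Gabrd and Ly6h followed, at -7.47 to -7.01. Few of these are known as genes of blood cells. Pus1 stood in both rankings, since a second probe read 7.93 in HF heart and 15.25 in HF whole blood. In the saline pair Ipp and Gm11938 carried outlier flags in control whole blood, Pla2g5 was at background in both, and the other 7 were higher in control whole blood by 1.78 to 6.72. Pla2g5, a secreted phospholipase, measured 5.18 in HF heart and 12.58 in HF whole blood, at least 112-fold above the bound of control whole blood.

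Few bright probes were detected in HF heart and absent from HF whole blood. Nfix, a transcription factor, was the brightest at 11.73, at least 92.6-fold above HF whole blood. Smok3a, a kinase known from sperm, measured 11.62, at least 85.9-fold above it. They did not mark heart as such, since Smok3a was not above background in control heart and Nfix measured 5.45 there. Other probes of Nfix and Smok3a were lower in HF heart, with differences of -1.52 and -2.37. C78339, Lefty1, Zfp362, Etohi1, Ahnak, Ado and Atat1 were also among the first 10, at 9.13 to 10.02. Ahnak, a giant scaffold protein, was seen in HF whole blood by a brighter probe (13.02 and 10.46).

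In the other direction the brightest was Sult2a7, a sulphotransferase, with 11.01 in HF whole blood and a level in HF heart that was at least 78.7-fold lower. Lama1, a laminin chain, measured 10.66 and Hc, complement component C5, measured 10.53, at least 61.4-fold and 56.2-fold lower. Map3k12, Gal3st4, Acbd5, Gm6460, Gm1527 and Catsperg1 were also among the first 10, at 9.93 to 10.42. All of these except Gm1527 were detected in control whole blood as well. In control heart all of them were detected too, at 3.93 to 4.73. The lowest detected level was 3.56 in control heart and 4.72 in HF heart, so their absence from HF heart depends on that limit.

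The transcripts that heart and blood shared at the highest level served translation, oxygen transport, iron storage and polyamine control. Tpt1, the translationally controlled tumour protein, measured 16.81 in HF heart and 17.22 in HF whole blood. Oaz1, which restrains polyamine synthesis, measured 16.46 and 17.64. Rpl38, a ribosomal protein, measured 16.27 and 16.69. Ftl2, a ferritin light chain, measured 15.94 and 16.93. The 10 were completed by 3 globins and by Gm16378, Gm15427 and Gm6900, and all 10 had levels above 15 in the saline pair. Globins and many Gm genes have near-identical copies that a probe may not tell apart.

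Abundant heart transcripts were then sought in blood. The brightest 10% of the 3037 mRNA probes that were detected in HF heart and free of outlier flags in whole blood were 304 probes with levels of at least 11.45. Of these, HF whole blood held 302 (99.3%, 95% Wilson interval from 97.6% to 99.8%), beside 2508 of all 3092 mRNA probes detected in HF heart. Control whole blood held 235 (77.3%, from 72.3% to 81.7%). The intervals cover the count of probes only. HF whole blood alone held 68, control whole blood alone held Smok3a, and Nfix was in neither. The 68 are 22.4% of the bright probes, beside 17.3% of all mRNA probes detected in HF heart.

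The bright probes that control whole blood lacked were nearly all in HF whole blood, namely 68 of 69. Of all 878 mRNA probes detected in HF heart and not above background in control whole blood, HF whole blood held 525. HF plasma held 20 of the 69 (29.0%, from 19.6% to 40.6%), beside 45.2% of the 878. Control heart held all 69, beside 98.2% of all mRNA probes. The 69 belonged to 62 genes, and the brightest 10 were Atp2a2, Nppa, Cox8b, Cox6a2, Ctgf, Actc1, Nppb, Fabp3, Tnnt2 and Gpx3. Ctgf, a connective tissue growth factor now named Ccn2, measured 16.40 in HF heart, 13.58 in HF whole blood and 11.68 in control heart. Gpx3, a secreted glutathione peroxidase, measured 15.21 in HF heart and 11.36 in HF whole blood. Against control whole blood, Cox6a2 was at least 400-fold, Atp2a2 at least 282-fold and Fabp3 at least 281-fold brighter in HF whole blood. A second Atp2a2 probe was detected in control whole blood (6.70, beside 10.34 in HF whole blood).

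The middle part of the 69 probes lay at a similar distance from heart to blood. Their median difference was 3.61, with quartiles of 3.29 and 3.86. The range was from 1.14, for Nppa, to 8.39, for Nfix, which was not detected in HF whole blood. All 68 probes detected in HF whole blood were lower there than in HF heart. The probes were chosen by a high level in HF heart, which enters this difference, so its sign is partly built in.

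Detection in HF whole blood went with the level in HF heart. Of 878 mRNA probes detected in HF heart and not above background in control whole blood, 525 (59.8%) were detected in HF whole blood. Over all mRNA probes not above background in control whole blood, detected in HF heart or not, the share was 52.8%. Among the 878, the share was 46.9% of 309 probes with a level from 4 to 6 in HF heart and 42.0% of 264 from 6 to 8. It was 79.7% of 172 from 8 to 10, 98.8% of 81 from 10 to 12, and 100% of 52 from 12 up. HF plasma held 57.3%, 52.7%, 27.3%, 25.9% and 25% of the same probes, so the share in HF plasma was lower, not higher, among the bright ones. For probes detected in HF whole blood the median difference was -0.84 and 0.68 in the lowest bins and 2.94, 3.88 and 3.60 in the others. The bins were set by the level in HF heart, which enters this difference, so a rise over the bins is partly built in. A counted probe also had to reach 5.19 in HF whole blood, which weighs most in the lowest bin. Of HF heart probes not above background in HF whole blood, control whole blood held 41.2% of 279 with levels from 4 to 6. It held 37.0% of 243 from 6 to 8 and 37.5% of 56 from 8 to 10.

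**Figure D4:**
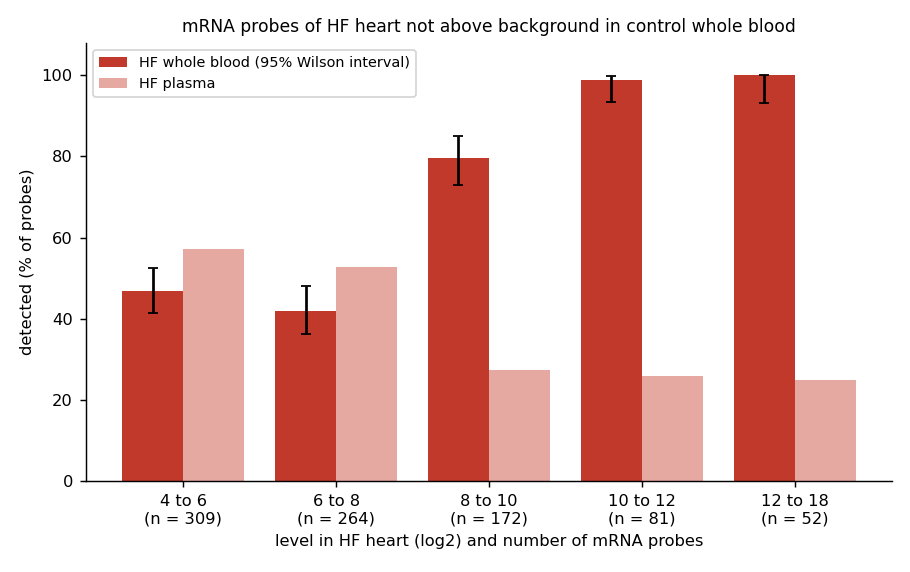
Share (%) of mRNA probes detected in HF whole blood (dark bars, with 95% Wilson intervals for the count of probes) and in HF plasma (light bars), by log2 level in HF heart, among 878 probes detected in HF heart and not above background in control whole blood. The share in HF whole blood reaches 98.8% and 100% in the highest bins, where HF plasma holds 25.9% and 25%.

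Levels in HF whole blood were set beside those of both hearts. Over 498 mRNA probes detected in both hearts and HF whole blood and not above background in control whole blood, Pearson's r of the level in HF whole blood was 0.61 with HF heart and 0.52 with control heart, and Spearman's rho 0.44 and 0.36. Over 133 LncRNA probes chosen in the same way the signs were opposite, with r of -0.18 and -0.14 and rho of -0.16 and -0.08. Probes are no replicates of one another, and HF whole blood shares its slide with both hearts. Among the mRNA probes, 39 were at least 4-fold higher in HF than in control heart. For these the median of HF heart minus HF whole blood was 3.74, and that of control heart minus HF whole blood was -0.34. Another 5 probes were at least 4-fold lower in HF heart, with medians of 1.77 and 4.05. The choice by the heart arrays enters these differences, which are therefore a description only.

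LncRNAs detected on both arrays were more often lower in heart than mRNAs were. Of 7536 LncRNA probes, 989 were detected in HF heart and HF whole blood, with 181 (18.3%) at least 2-fold higher in heart and 596 (60.3%) at least 2-fold lower. The median difference was -1.48, beside -0.54 for mRNAs. HF heart alone held 420 (5.57%) and HF whole blood alone 692 (9.18%), while 5432 were detected on neither. Intergenic RNAs were higher in heart for 18% and lower for 60.6% of 919 probes, and ultraconserved regions for 22.9% and 55.7% of 70. In the saline pair 8.36% of 1208 were higher and 68.7% lower in heart, with 15.0% of all LncRNA probes in control heart alone and 2.92% in control whole blood alone.

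**Figure D5:**
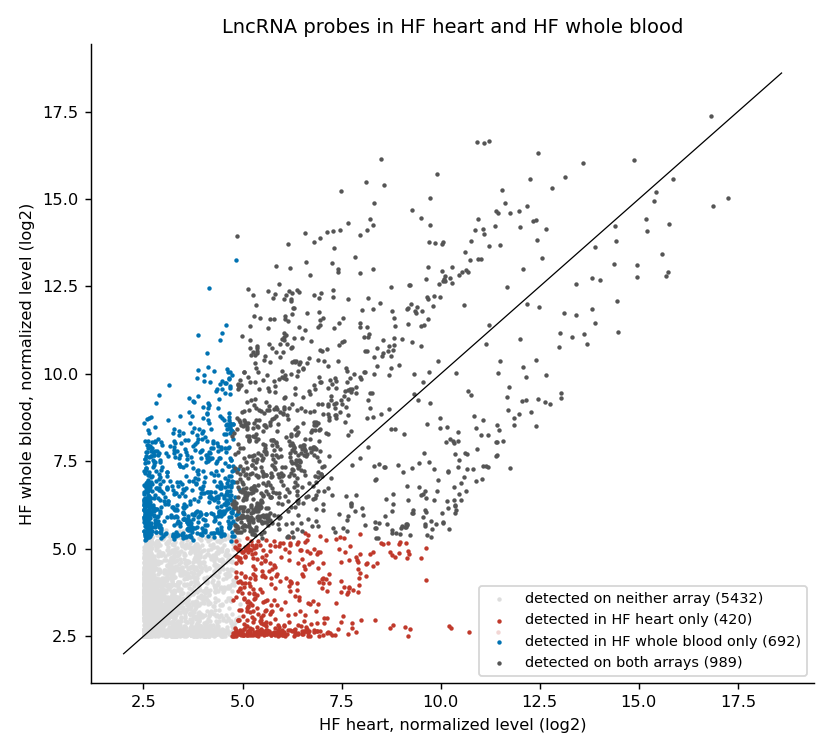
Normalized log2 levels of LncRNA probes in HF heart (horizontal) and HF whole blood (vertical), coloured by where they were detected, with the line of equal levels. Of the 989 detected on both arrays, 596 are at least 2-fold lower in HF heart, and the brightest of the 420 seen only in HF heart, mouselincRNA1081+, reaches 11.44.

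Among LncRNAs detected on both arrays, the largest difference towards heart was that of BC025881, with 10.21 in HF heart and 5.57 in HF whole blood (4.63 ± 0.32). It lies on mm9 at chr5:52765889-52766880 on the minus strand. MM9LINCRNAEXON11765+ (11.76 and 7.32) and MM9LINCRNAEXON10645- (9.75 and 5.34) came next. MM9LINCRNAEXON11100+ measured 10.37 and 6.02 and lies at chr19:23802935-23803233 on the plus strand. MM9LINCRNAEXON10992- measured 10.07 and 5.73 and lies at chr2:84427480-84429877 on the minus strand. All 5 were detected in control heart, at 8.50 to 9.66, and none was above background in control whole blood.

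Towards blood the largest difference among these LncRNAs was that of MM9LINCRNAEXON10147+ (mm9 chr9:96651566-96652392, plus strand), with 4.86 in HF heart and 13.95 in HF whole blood (-9.10 ± 0.34). It measured 5.26 in control heart and 5.02 in control plasma, and was not above background in control whole blood (3.98) or HF plasma (4.70). Its high level thus belonged to a single array. The others of the first 5 detected on both arrays were mouselincRNA0052- (7.49 and 15.23), MM9LINCRNAEXON10699+ (8.50 and 16.16), humanlincRNA0970- (6.16 and 13.71) and the ultraconserved uc.136+ (6.58 and 14.02). In control whole blood MM9LINCRNAEXON10699+ (14.77), mouselincRNA0052- (11.33) and uc.136+ (11.06) were bright too, while humanlincRNA0970- carried an outlier flag.

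LncRNAs detected only in HF heart were led by mouselincRNA1081+ (11.44), at least 75.8-fold higher than in HF whole blood and thus further from it than BC025881. It was followed by humanlincRNA0678+ (10.71), MM9LINCRNAEXON11026+ (10.25), MM9LINCRNAEXON12112- (10.21) and DV052421 (9.64). None marked the heart of saline mice, since mouselincRNA1081+ was at 3.98 in control heart and the other 4 were not above background. More widely, of 9 LncRNA probes with a level of at least 9 in HF heart and not above background in control heart, 1 was detected in HF whole blood. Of 247 such LncRNA probes detected in both hearts, 241 (97.6%) were detected in HF whole blood. The corresponding counts for mRNAs were 4 of 6 and 841 of 851 (98.8%).

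Detected only in HF whole blood were MM9LINCRNAEXON10239+ (13.25), MM9LINCRNAEXON10944- (12.45), MM9LINCRNAEXON11901- (11.40), MM9LINCRNAEXON11321- (11.16) and MM9LINCRNAEXON10713- (11.12). They were at least 84.8-fold to 341-fold lower in HF heart. MM9LINCRNAEXON10944- (mm9 chr2:71581306-71582648, minus strand) was not above background in control whole blood, and the other 4 were detected there. In control heart only MM9LINCRNAEXON11321- of the 5 was detected (4.23).

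The LncRNAs most abundant in both tissues were AV038163 (16.83 and 17.38), AK216629 (15.86 and 15.58), BB761138 (15.42 and 15.19), AV131371 (17.24 and 15.02) and MM9LINCRNAEXON10465+ (15.38 and 14.94). Apart from AV131371, whose difference was 2.22, their levels in heart and blood lay within 2-fold.

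Bright heart LncRNAs were nearly all seen in HF whole blood, but most were seen in control whole blood as well. Of the 138 brightest LncRNA probes of HF heart, HF whole blood held 136 (98.6%, from 94.9% to 99.6%), beside 989 of all 1409 detected in HF heart. Control whole blood held 126 of the 138 (91.3%, from 85.4% to 95%). HF whole blood alone held 10, which is 7.25%, beside 10.1% of all LncRNA probes detected in HF heart. For mRNAs the corresponding shares were 22.4% and 17.3%. Of the 12 that were not above background in control whole blood, HF whole blood held 10 and HF plasma 1. Of all 497 LncRNA probes detected in HF heart and not above background in control whole blood, HF whole blood held 140 (28.2%) and HF plasma 22.7%. The median difference of the 12 was 4.08, beside 3.61 for the mRNA probes chosen in the same way. The choice by level in HF heart enters both medians.

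The brightest of these LncRNAs after MM9LINCRNAEXON11765+ was mouselincRNA0077+, with 11.69 in HF heart, 8.97 in HF whole blood and 12.24 in control heart. MM9LINCRNAEXON11342- (mm9 chr15:68175346-68178155, minus strand) measured 11.20 in HF heart and 7.34 in HF whole blood. MM9LINCRNAEXON11297+ (mm9 chr16:43641791-43642301, plus strand) measured 11.14 and 7.37. MM9LINCRNAEXON11028- measured 11.04 and 7.0. All of them were also detected in control heart, and HF whole blood lay 2.72 to 4.44 below HF heart.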

How the data were processed

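Each mixture was hybridised to 1 single-colour LncRNA and mRNA array. The authors took the spot values from the scans with Feature Extraction 11.0.1.1, and the deposited files hold an intensity per spot with its background subtracted, an error and quality flags. The authors' methods name quantile normalization, a detection flag and a fold threshold of 2.

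Control spots were left out, a probe's spots were averaged as log2, and quantile normalization covered all 59729 probes, which removes overall differences in signal between arrays. Names of mRNAs came from the part of the authors' list held here, of whose 4093 probes 3977 matched RefSeq by accession, and mm9 coordinates of LncRNAs came from the authors' tables. The lowest detected level, which sets the bounds, was 4.72 in HF heart, 5.19 in HF whole blood and 5.78 in control whole blood. In medians of lists a probe detected on 1 array was set at its bound, or at 0 where the bound had the wrong sign. Precision is limited by the single array, and the median error of a signal within an array was 10.5% in HF heart and 11.1% in HF whole blood.

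The text names members of 20 gene lists, and by rank the first 10 mRNAs and 5 LncRNAs of each kind (largest differences, seen on 1 array, most abundant in both, bright in heart and absent from control whole blood). The results of some members are not reported here. Members and lists were chosen with earlier results of these data known. Alternatives were 75th percentile scaling, normalization of both arrays alone, normexp (offset 50) on median spot intensities, a weaker detection flag, no filter, a 4-fold threshold, outlier spots kept and the brightest 20%. Simulated arrays served as a test. Python 3.11.15 with numpy 2.4.6, pandas 2.3.3, scipy 1.17.1 and matplotlib 3.10.9, and R 4.3.3 with limma 3.58.1, were used.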

Additional observations from a re-analysis of the deposited data

Results flagged for a closer look

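For 2 named mRNA probes the difference between heart and blood ran in opposite directions in treated and saline mice, and with 1 array per condition the reversal was not tested. Galns was 5.66 higher in HF heart than in HF whole blood on the log2 scale, and in the saline pair at least 2.86 lower in heart, where it was not above background (a bound of -2.86). Smok3a was at least 6.42 higher in HF heart, and at least 6.27 lower in control heart (a bound of -6.27). A second Smok3a probe read 5.39 in HF heart and 7.76 in HF whole blood.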

How the results depend on the processing

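No paired analysis was possible because each condition had 1 array. For the 12 main counts and shares, 38 alternative values stayed within 1.5 times the count or within the interval of the share, 18 moved and 0 reversed. With no detection filter, 1393 mRNA probes were higher and 1655 lower in HF heart, and 791 and 1966 LncRNA probes. A 4-fold threshold left 705 lower mRNA probes. The weaker detection flag gave 394 higher and 1172 lower LncRNA probes, 1182 LncRNA probes seen only in HF whole blood, and 213 mRNA probes seen only in HF heart and 85 only in HF whole blood. Under that flag 100% of the bright mRNA probes dim in control whole blood were in HF whole blood. Bright mRNA probes chosen by control heart, an alternative chosen after the data had been seen, were in HF whole blood for 100%, and likewise 100% of those dim in control whole blood. Of the bright probes chosen by HF heart, control whole blood held 77.3% of mRNAs and 91.3% of LncRNAs, and HF plasma, also added later, held 29% and 8.33% of those dim in control whole blood. With the brightest 20%, 92% of LncRNAs were in HF whole blood. Scaling to the 75th percentile shifted the median difference of all probes detected on both arrays from -0.20 to 0.13, and normexp to -0.09. The share of higher among 2-fold mRNA calls was 44.3%, 49.7% and 48.0% in this order. Over probes detected on both arrays, the list medians kept their sign under these scalings apart from the eosinophil list (0.23 after scaling to the 75th percentile), and the sarcomere median was between 2.78 and 4.04, the neutrophil median between -2.57 and -1.55. For 42 named differences, 99 alternative values moved by more than the error within arrays, 27 did not, and 0 reversed. Beyond the change in which probes enter, the cause of these shifts was not tested.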
